A study of Mus musculus with 8 samples.

Results

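Tendon lineage genes were examined by name in sorted satellite cells (SCs), which are the resident stem cells of muscle, from sedentary and treadmill-trained mice. The 8 genes are Scx, Mkx, Tnmd, Thbs4, Comp, Kera, Chad and Cilp2, out of 52636 genes in the table. All 8 had a read in at least 1 library, and 7 of them had a mean of at least 1 FPKM (fragments per kilobase of gene, scaled by library size), as did 4328 genes in all. The list was chosen by gene name and not by a measured value. Male C57B/6J mice, 10 weeks old, stayed sedentary (control, 4 libraries) or ran at 12 m/min for 30 min per day on 4 days per week for 4 weeks (exercise, 4 libraries). SCs of the tibialis anterior were sorted as CD34+ and α7-integrin+ cells that were negative for CD31, CD45, CD11b and Sca1, and about 800 cells were amplified for each library with a single-cell kit. The replicates of the sequencing are described as mice, and the labels do not tie a library to an animal. The comparison asks how 4 weeks of running changed the RNA of SCs.

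Tendons join muscle to bone and consist mainly of collagen fibres laid down by tenocytes. Scleraxis (Scx), a basic helix-loop-helix transcription factor that binds E-box sequences, marks tendon progenitors, and Mohawk (Mkx), a homeobox factor of the TALE class, acts with it in the formation of tendon. Tenomodulin (Tnmd), a transmembrane glycoprotein, marks more mature tenocytes, and the remaining genes on the list code for proteins of the extracellular matrix of tendon, cartilage or related tissue. Muscle SCs are defined by the transcription factor Pax7.

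Libraries of control held 2339966 to 3013354 reads on genes and those of exercise 1011737 to 1200221, which fell on 5169 to 7307 and 2348 to 3289 genes. Mitochondrial transcripts took 2.09 to 15.3% of the reads in control, 7.85% and 7.56% in exercise 1 and 2, 50.2% in exercise 3 and 68.7% in exercise 4. The library size by which the values were divided was not the read total. The read total was 0.633 to 1.08 times that size in 7 libraries and 4.01 times in exercise 4, so that values of exercise 4 are raised relative to its reads. Some libraries may not be separate samples. The read counts of exercise 1 and 2 gave a chi-square per degree of freedom of 3.86, against 82.6 to 711 in the other pairs within a group. Genes with at least a set minimum of reads in control 1 and none in control 3 (345 genes) were followed in control 4. Their share of reads there was, at the median, 0.281 of that in control 1. For genes with the reverse pattern (658 genes) this was 0.714. For genes chosen in the same way from exercise 1 against exercise 4 (139 genes), exercise 3 held 0.299 of the share in exercise 1. For the reverse (142 genes) it held 0.677 of the share in exercise 4. Some genes that most cells use were also listed at 0. Hprt had 0, 819, 644 and 376 reads in control 1 to 4 and 0, 0, 0 and 1 in exercise 1 to 4, and Gapdh, whose reads can be shared with pseudogenes, had 701, 6145, 2735 and 9 in control and 1, 40, 0 and 0 in exercise. A value of 0 for any gene below is therefore a listing at 0 and not proof that the RNA was absent. Actb, another widely used gene, had reads in every library, 1152, 6852, 5372 and 3889 in control and 12629, 12015, 4461 and 332 in exercise. Hprt, Gapdh and Actb were picked for this check after the values were seen. All 8 libraries entered the tests, and fold changes without the doubted libraries are given after the single genes.

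Upstream sequence is shown for the 3 genes that held most of the summed level of the list, because Scx binds E-boxes and these genes are commonly named with it. RefSeq (GRCm38.p6) gave a window before the transcription start for 5 of the 8 genes. The stretches of Tnmd (chrX:133850758-133850979, plus strand), Thbs4 (chr13:92794819-92795068, minus strand) and Chad (chr11:94564797-94565046, plus strand) end where the gene begins in the deposited table. They are written 5′ to 3′, and capitals mark an E-box, CANNTG, which reads as CANNTG on both strands.
Tnmd: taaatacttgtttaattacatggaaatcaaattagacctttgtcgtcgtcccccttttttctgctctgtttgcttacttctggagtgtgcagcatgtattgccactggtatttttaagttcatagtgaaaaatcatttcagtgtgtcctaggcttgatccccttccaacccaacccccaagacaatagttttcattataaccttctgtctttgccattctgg
Thbs4: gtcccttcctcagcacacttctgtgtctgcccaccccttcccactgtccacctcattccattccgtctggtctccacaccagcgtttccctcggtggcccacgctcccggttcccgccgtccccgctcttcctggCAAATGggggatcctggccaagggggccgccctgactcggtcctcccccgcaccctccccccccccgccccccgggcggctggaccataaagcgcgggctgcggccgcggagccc
Chad: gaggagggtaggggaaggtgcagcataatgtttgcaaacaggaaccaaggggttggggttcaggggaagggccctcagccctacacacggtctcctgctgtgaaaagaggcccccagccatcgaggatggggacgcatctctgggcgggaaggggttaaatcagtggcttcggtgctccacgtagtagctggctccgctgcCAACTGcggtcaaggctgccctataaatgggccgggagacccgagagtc
No E-box lies in the window of Tnmd or Kera. The window of Thbs4 holds CAAATG, 109 bases before the start, that of Chad holds CAACTG at 43 bases, and that of Cilp2 holds CAGTTG at 150 bases. These windows precede the RefSeq start, and those of Kera and Cilp2 lie within the gene as placed in the deposited table. Of 32851 windows of 250 bases before a RefSeq start, 66.2% hold at least 1 E-box, so 3 of the 5 used is near that share. These matches are letters in a window and were not tested as binding sites.

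The groups were compared with limma on log2(FPKM + 1), and p-values were adjusted by Benjamini-Hochberg over 4328 genes. Of the 7 genes tested, Scx rose and Kera and Cilp2 fell, while Tnmd, Thbs4, Comp and Chad did not pass an adjusted p of 0.05. Of all genes tested, 8.78% were called higher and 26.8% lower, against 1 and 2 of the 7. The groups did not overlap in 4 of the 7, with Scx and Chad higher in every exercise library and Kera and Cilp2 lower, beside 7.62% of all genes tested higher and 24.0% lower in this way. The median log2 fold change was -0.05 over the 7 genes and -1.42 over all genes tested, and with groups that held no read set to 3 reads per library the medians were -0.05 and -0.78. On the log2 scale the 7 changes lay from -3.91 (Cilp2) to 6.47 (Scx) relative to the median of all genes. In whole libraries of this kind, fewer cells of a type and less RNA per cell cannot be told apart.

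**Figure D1:**
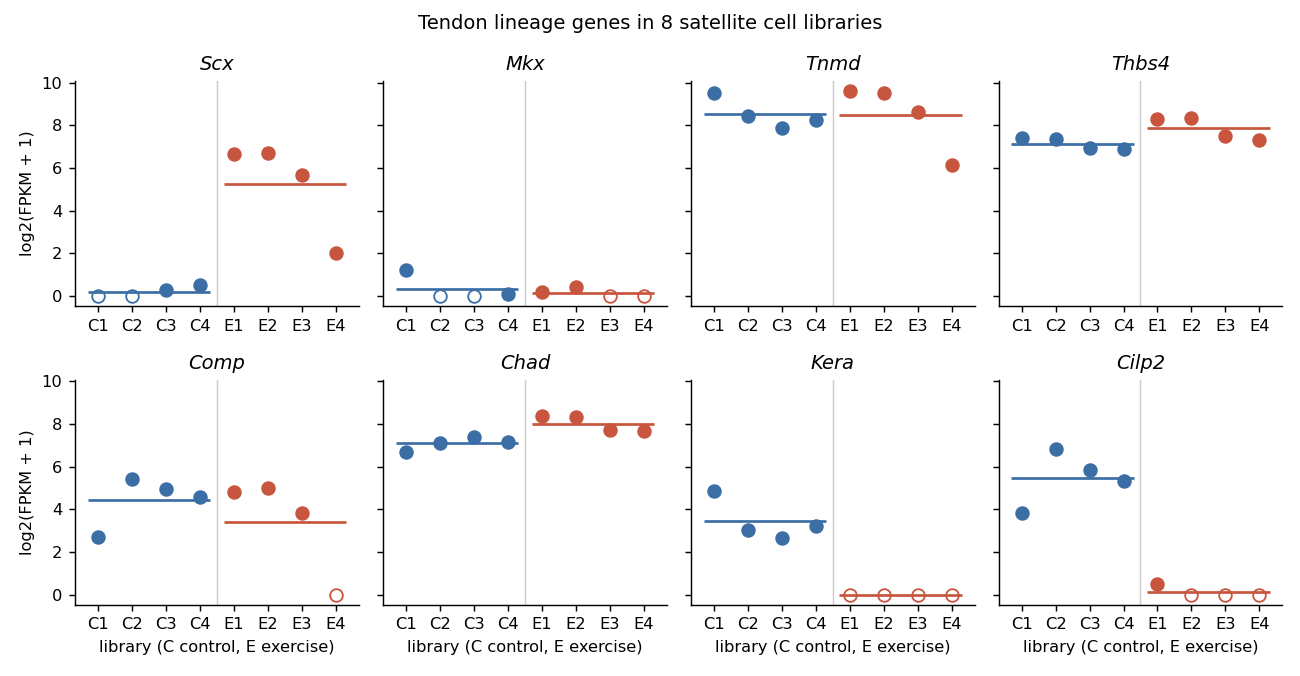
log2(FPKM + 1) of each of the 8 genes (vertical axis) in control libraries C1 to C4 and exercise libraries E1 to E4 (horizontal axis). Open circles are libraries with no read of the gene, and bars are group means of the log2 values. Scx lies near 0 in control and between 2.02 and 6.69 in exercise, Kera and Cilp2 are near or at 0 in exercise, and Tnmd, Thbs4 and Comp overlap.

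Scx (ENSMUSG00000034161, GRCm38 chromosome 15, 76457438 to 76459468, plus strand) had at most 2 reads in any control library and at least 62 in 3 of the exercise libraries. It had 0, 0, 0.226 and 0.442 FPKM in control 1 to 4, from 0, 0, 1 and 2 reads. It had 101, 102, 49.2 and 3.05 FPKM in exercise 1 to 4, from 191, 185, 62 and 1 reads. Exercise 1 to 3 were far above control, whereas exercise 4 rested on a single read, with 9.16 FPKM as the upper limit that no read would leave there. Pooled over libraries, 439 reads in exercise against 3 in control gave a 415-fold higher level in exercise (95% counting interval 141 to 2022), and 442-fold without exercise 4. The log2 fold change was 5.05 with a standard error (SE) of 1.04 (limma adjusted p = 0.00844), a size that depends on the pseudocount. The exact two-sided permutation p was 0.0286, the smallest that 4 libraries against 4 allow, and 0.0571 without any 1 control library. Such intervals take in the counting error alone, because reads after amplification do not each stand for a molecule.

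Scx lies within Bop1, a ribosome biogenesis gene on the opposite strand, with which it shares 0 exon bases. Bop1 had 0, 23, 5 and 10 reads in control 1 to 4 and none in exercise, and the part of this locus in the reads of Scx was not tested. Of all genes tested, those whose log2 level over the 8 libraries followed Scx most closely were Cib1, Nt5e and Desi2 (Pearson r 0.999, 0.998 and 0.998, n = 8 libraries). These correlations are descriptions over 2 groups in which exercise 1 and 2 are nearly alike.

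Mkx had almost no reads in either group and was below the limit for testing. It had 1.33 FPKM (12 reads) in control 1, 0 in control 2 and 3, 0.0639 (1 read) in control 4, 0.152 (1 read) in exercise 1, 0.319 (2 reads) in exercise 2 and 0 in exercise 3 and 4. Only control 1 held more than 3 reads, and the groups overlapped (exact permutation p = 0.886). No read leaves up to 2.65 FPKM possible in exercise 4 and 0.689 in exercise 3. The listed values of Mkx in exercise 1 to 3 lay far below those of Scx there. A small difference between the groups was not detectable at this depth. The annotation gives Mkx 201 exon bases in common with AC148004.2 on the same strand, and reads on these cannot be assigned with certainty.

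Tnmd (ENSMUSG00000031250, GRCm38 chromosome X, 133850980 to 133865577, plus strand) was the most abundant gene of the list per length in 7 of the 8 libraries. It had 731, 351, 233 and 302 FPKM in control 1 to 4 (2270, 1454, 1231 and 1628 reads). It had 774, 734, 393 and 69.2 FPKM in exercise 1 to 4 (1751, 1584, 589 and 27 reads). Exercise 1 and 2 matched control 1, and exercise 4 was the lowest of all 8, so the groups overlapped. The log2 fold change was -0.05 (SE 0.84, 95% interval -1.94 to 1.83, limma adjusted p = 0.959, exact permutation p = 1). Its sign turned to 0.72 without exercise 4 and to 0.28 without control 1, and was 0.36 with quantile normalization and 0.24 with voom on the reads recovered from the values. Among genes with reads, Tnmd ranked 57 to 111 by FPKM in exercise 1 to 3, 495 in exercise 4 and 98 to 219 in control. Its level followed most closely that of Hmgn1, Gas6 and Atp6v0e (Pearson r 0.984, 0.981 and 0.976, n = 8 libraries).

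Of the thrombospondins, large matrix glycoproteins that bind collagen and calcium, Thbs4 (ENSMUSG00000021702, GRCm38 chromosome 13, 92751590 to 92794818, minus strand) was well covered in every library. It had 170, 162, 121 and 118 FPKM in control 1 to 4 and 309, 325, 183 and 157 in exercise 1 to 4, the last from 149 reads. Exercise 1 to 3 lay above every control value, and exercise 4 lay within the control range. The means were 143 ± 26.9 and 244 ± 85.8 FPKM (SD, n = 4), with a log2 fold change of 0.72 (SE 0.57, 95% interval -0.56 to 2.0, limma adjusted p = 0.312, exact permutation p = 0.0857). Without exercise 4 the exact permutation p was 0.0286, and on values scaled to read totals it was 0.914.

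Comp (ENSMUSG00000031849, GRCm38 chromosome 8, 70373558 to 70382066, plus strand), the cartilage oligomeric matrix protein and a relative of Thbs4, was lower per length than Thbs4 in every library. It had 5.58, 42.0, 30.4 and 22.9 FPKM in control 1 to 4 and 26.6, 31.3, 13.4 and 0 in exercise 1 to 4. Control 1 and exercise 4 were the low libraries of their groups, and no read in exercise 4 leaves up to 3.51 FPKM possible. The groups overlapped, with a log2 fold change of -1.01 (SE 1.18, 95% interval -3.65 to 1.62, limma adjusted p = 0.483, exact permutation p = 0.571). That sign did not hold without exercise 4 (0.12) or with quantile normalization (0.02). The genes nearest in pattern to Thbs4 were Selenom, Mcl1 and AC138292.1 (Pearson r 0.963 to 0.956), and to Comp they were Eef1g, Ftl1 and Ndufb10 (0.998 to 0.992), over the same 8 libraries.

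Of the leucine-rich repeat proteins on the list, Kera fell and Chad did not pass the test. Chad (ENSMUSG00000039084, GRCm38 chromosome 11, 94565047 to 94569127, plus strand), chondroadherin, an attachment protein for integrins, had 102, 138, 167 and 141 FPKM in control 1 to 4. It had 328, 320, 208 and 202 FPKM in exercise 1 to 4, from 922, 858, 387 and 98 reads. Every exercise library exceeded every control library, and the means of 137 ± 26.5 and 265 ± 68.9 FPKM (SD, n = 4) differed by 1.93 times (exact permutation p = 0.0286). The log2 fold change was 0.93 (SE 0.55, 95% interval -0.31 to 2.17), and its limma adjusted p of 0.183 did not pass. Without control 1 the exact permutation p was 0.0571. On the scale of reads per kilobase scaled to the read total, exercise 4 had 50.5, below the lowest control value of 100.2, and the groups overlapped (exact permutation p = 0.6). Chad lies within Acsf2 on the opposite strand, shares 0 exon bases with it, and Acsf2 had no read in any library.

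Kera (ENSMUSG00000019932, GRCm38 chromosome 10, 97606879 to 97613692, plus strand), the keratan sulfate proteoglycan keratocan, was read in every control library and in no exercise library. It had 27.9, 7.16, 5.28 and 8.15 FPKM in control 1 to 4, from 146, 50, 47 and 74 reads. Control 1 was the highest of these, and no read in exercise 4 leaves up to 4.57 FPKM possible, just under control 3. Since Kera was listed at 0 in every exercise library, no fold is given. The fitted log2 fold change moves with the pseudocount and was -3.43 (SE 0.65, limma adjusted p = 0.00577, exact permutation p = 0.0286). Nearest in pattern to Kera were Chodl, Ost4 and Mcur1 (Pearson r 0.999 each), none of which had a read in exercise, and nearest to Chad were Rpl35a, Cd34 and Rpl21-ps8 (0.990, 0.981 and 0.971). Cd34 is the surface marker used in the sort, with a mean of 0.874 FPKM in control and 5.54 in exercise (limma adjusted p = 0.067).

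Cilp2 (ENSMUSG00000044006, GRCm38 chromosome 8, 69880369 to 69887687, minus strand), a cartilage intermediate layer protein, showed the lowest log2 fold change of the 7 genes tested. It had 13.3, 112, 55.6 and 38.6 FPKM in control 1 to 4, from 132, 1479, 936 and 663 reads. In exercise it had 0.416 FPKM (3 reads) in exercise 1 and 0 in the other libraries. The groups were far apart, with control 2 highest and control 1 lowest among controls. Pooled over libraries, 3210 reads in control against 3 in exercise gave a 377-fold higher level in control (95% counting interval 129 to 1828), and 264-fold (90.3 to 1283) without control 2. The log2 fold change was -5.32 (SE 0.76, limma adjusted p = 0.00158, exact permutation p = 0.0286).

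**Figure D2:**
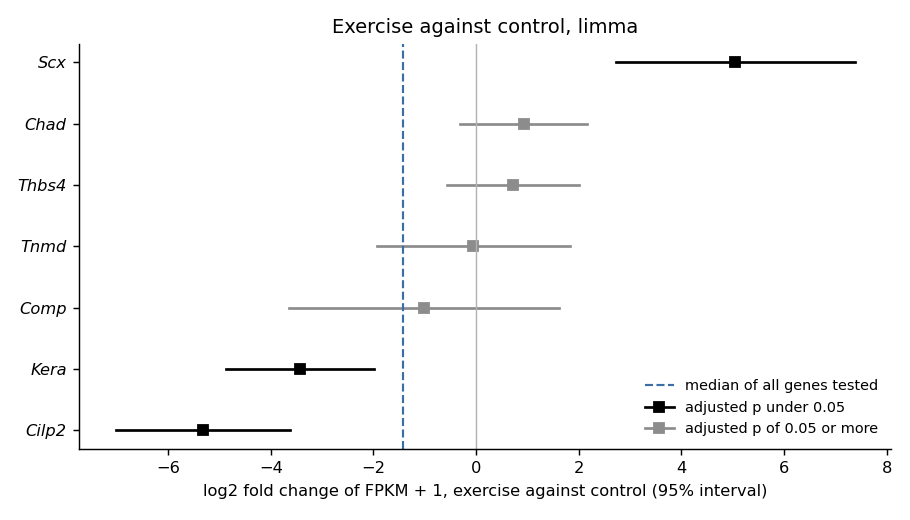
log2 fold change of FPKM + 1, exercise against control, with 95% intervals from limma for the 7 genes tested (horizontal axis). Black squares passed an adjusted p of 0.05 and grey ones did not, and the dashed line is the median of all genes tested, -1.42. Scx lies right of 0 and Kera and Cilp2 left of it with their whole intervals, and the other 4 intervals include 0.

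The calls of Scx, Kera and Cilp2 held in 17 of 18 other settings of the limma fit, with log2 fold changes of 4.57 to 7.46, -6.61 to -2.34 and -8.14 to -4.39. These settings included leaving out each library in turn and counting exercise 1 and 2 as 1 sample. With exercise 1 and 2 averaged and control 4 and exercise 3 left out, 3 control samples stood against 2 of exercise. No gene at all then passed an adjusted p of 0.05 in limma, and 469 of 4499 had an unadjusted p under 0.05. The log2 fold changes of Scx, Kera and Cilp2 were then 4.25, -3.51 and -5.36 with limma adjusted p of 0.426, 0.448 and 0.29, and the exact permutation p of 0.1 was the smallest that 3 against 2 allow. A fit of this size that calls no gene does not show what the calls rest on. Tnmd, Thbs4, Comp and Chad had log2 fold changes of -0.77, 0.58, -1.92 and 0.94 there, and passed in none of the 18 settings.

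**Figure D3:**
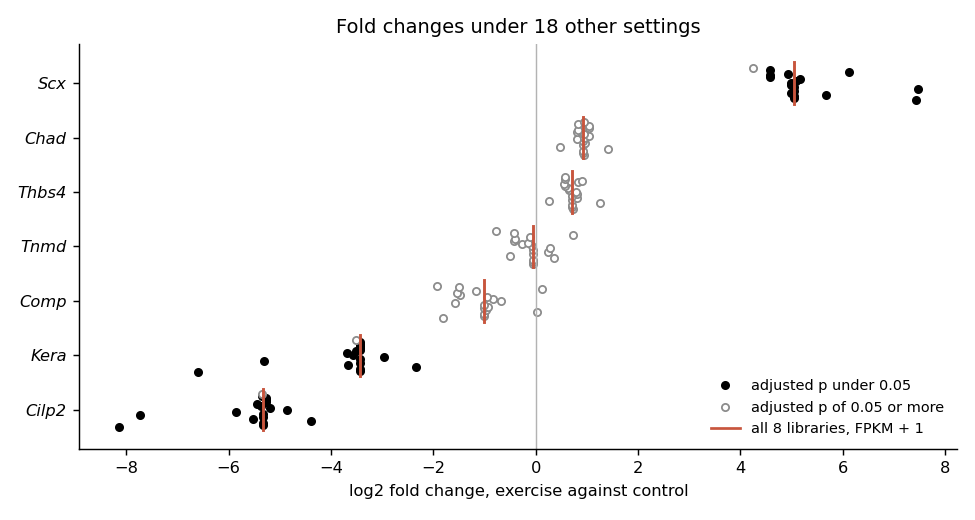
log2 fold change of each of the 7 genes tested (horizontal axis) under 18 other settings of the limma fit, 1 point per setting, with the value from all 8 libraries as a red bar. Filled points passed an adjusted p of 0.05. Points of Scx, Kera and Cilp2 stay on 1 side of 0, with 1 open point each, and those of Tnmd and Comp fall on both sides.

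Taking the 8 genes as a set of levels, their summed FPKM was 613 to 1052 in control and 1539, 1513, 846 and 432 in exercise 1 to 4. Tnmd, Thbs4 and Chad held 80.1 to 95.4% of this sum in control and 91.2 to 99.3% in exercise. As a share of reads, the list took 0.173 to 0.214% in control, 0.444% and 0.443% in exercise 1 and 2, 0.146% in exercise 3 and 0.0238% in exercise 4. Exercise libraries were thus both the highest and the lowest of the 8, and the low ones were those in which mitochondrial transcripts took most of the reads, a relation that was not tested.

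Ratios between genes of 1 library do not depend on its library size. Chad over Thbs4, in FPKM, was 0.602, 0.853, 1.37 and 1.19 in control 1 to 4 and 1.06, 0.983, 1.14 and 1.29 in exercise 1 to 4. Tnmd over Thbs4 was 4.31, 2.17, 1.92 and 2.56 in control and 2.51, 2.25, 2.15 and 0.44 in exercise. Both ratios overlapped between groups, with control 1 high and exercise 4 low for Tnmd. Scx over Thbs4 was at most 0.00375 in control and 0.326, 0.314, 0.269 and 0.0194 in exercise 1 to 4, so that Scx was higher in exercise also relative to Thbs4. Across the 8 libraries, the log2 levels of Scx correlated with those of Thbs4 at a Pearson r of 0.853 and with those of Tnmd at 0.396, and Kera and Cilp2 correlated with each other at 0.83. These are descriptions over libraries of 2 groups, given with no test.

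Control 4 and exercise 3 held the list in the proportions of the libraries they stood between. The share of reads of each gene in exercise 3 was set against 0.299 of its share in exercise 1 plus 0.677 of its share in exercise 4. For the 5 genes with at least 40 reads there, the observed share was 0.948 to 1.02 times this sum, with 0.0556% against 0.0566% for Thbs4 and 0.00517% against 0.00545% for Scx. In control 4, set against control 1 and control 3 in the same way, the ratio was 0.924 to 1.10 for 6 genes, with 0.0238% against 0.0238% for Cilp2. Comp is among the genes from which the weights for exercise 3 were taken. The intermediate values of Scx, Thbs4, Comp and Tnmd in exercise 3 are therefore not shown to be those of a separate sample.

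**Figure D4:**
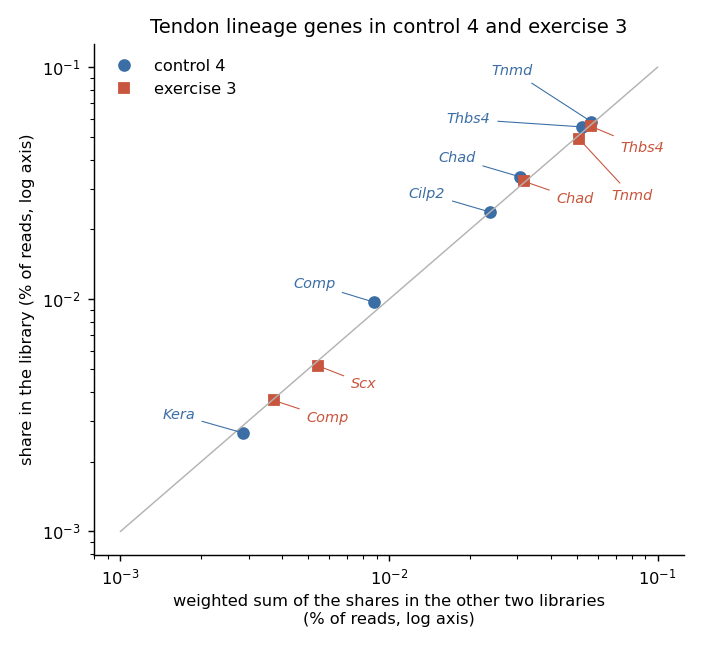
Share of reads of each gene in control 4 and exercise 3 (vertical axis, percent, log scale) against the weighted sum of its shares in control 1 and 3 or in exercise 1 and 4 (horizontal axis, percent, log scale). The grey line marks equal values. All 11 points, from genes with at least 40 reads, lie within 0.924 to 1.10 times the sum.

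Among 38 further matrix genes and regulators of tendon, 36 had a read, 31 were tested, 3 were called higher and 7 lower in exercise. These are 9.68% and 22.6% of the genes tested, near the 8.78% and 26.8% of all genes. Their median log2 fold change was -1.08, against -1.42 for all genes. With groups at 0 set to 3 reads it was -1.0, against -0.78 for all genes, so the list lay above the median of all genes in the first case and below it in the second. Prg4, the lubricating proteoglycan lubricin, had 3.67 to 8.01 FPKM in control and 1811, 1707, 1097 and 195 in exercise 1 to 4, a log2 fold change of 7.27 (limma adjusted p = 0.00067). Angptl7, a secreted angiopoietin-like protein, had 102 to 253 FPKM in control and 1.61 to 6.65 in exercise, with a log2 fold change of -4.94 (limma adjusted p = 0.00149). Both passed in all 17 settings that kept at least 3 samples per group, and in the fit of 3 against 2 samples their log2 fold changes were 6.57 and -5.08, where no gene of any list passed. Clec11a, a secreted lectin, and Col11a1, a chain of a fibrillar collagen, were listed at 0 in exercise and had 4.82 to 20.6 and 2.33 to 5.77 FPKM in control (log2 fold change -3.46 and -2.08, limma adjusted p = 0.00403 and 0.0119). Clec11a passed in all of these 17 settings. Col11a1 passed in 11 and not, for example, when exercise 1, 2 or 3 was left out. The chains of type I collagen, the main fibre of tendon, differed, with Col1a1 at 27.7 and 59.6 FPKM on average in control and exercise (limma adjusted p = 0.396) and Col1a2 lower, at 615 and 103 (limma adjusted p = 0.0246, and up to 0.0687 in the 4 settings where it did not pass). Col1a1 and Col1a2 were named after their values were seen.

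Of 20 close relatives of the listed genes, 19 were in the table, 11 had a read and 7 were tested, with 3 called higher (42.9%, against 8.78% of all genes tested), 4 that did not pass and a median log2 fold change of 0.34, against -1.42 for all genes. With 7 genes tested, nothing is read from this share. Cilp, the relative of Cilp2, moved the opposite way, from 2.46, 68.9, 47.2 and 27.9 FPKM in control to 1384, 1393, 708 and 65.3 in exercise, with a log2 fold change of 4.51 (limma adjusted p = 0.0256). Exercise 4 lay within the control range, and the adjusted p was above 0.05, up to 0.0763, in 7 of the 17 settings, among them those without control 4 or without exercise 1, 2 or 3. Lum, a leucine-rich repeat proteoglycan of the family of Kera, had 90.8 to 123 FPKM in control and 311 to 532 in exercise (log2 fold change 2.02, limma adjusted p = 0.0229). Thbs1, a relative of Thbs4, had 14.6 to 27.6 FPKM in control and 30.9 to 170 in exercise (log2 fold change 2.13, limma adjusted p = 0.048). Lum did not pass in 8 of the 17 settings and Thbs1 in 10, up to adjusted p of 0.118 and 0.215, and none of the 3 genes changed sign. Neither passed without control 3, control 4, exercise 1, exercise 2 or exercise 3.

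Genes upstream of the tendon programme, which include transforming growth factor β (Tgfb) ligands, their receptors and Smad factors, were thinly read. Of 24, 17 had a read and 6 were tested, with 3 called lower, against 26.8% of all genes tested, and 3 that did not pass. The median log2 fold change was -1.52, near the -1.42 of all genes (-1.04 and -0.78 with groups at 0 set to 3 reads). Smad4, the shared partner of receptor-activated Smads, had 312, 90.3, 51.3 and 91.2 FPKM in control and was listed at 0 in exercise, and passed in all 17 settings (limma adjusted p = 0.000514). Smad3, which carries the Tgfb signal, and Spry2, a feedback inhibitor of growth factor signalling, also had no read in exercise (limma adjusted p = 0.0327 and 0.0392). These passed in 6 and 4 of 16 settings and not when any library other than control 1 or exercise 4 was left out, and Spry2 also not without exercise 4. Tgfb1, Tgfb2 and Tgfb3 had at most 3.80 FPKM in any library.

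Of 15 genes of the myotendinous junction, where tendon meets muscle fibre, 10 had a read and 3 were tested, of which 2 were called lower, against 26.8% of all genes tested. Xirp2, an actin-binding protein of muscle, had 39.4 to 86.4 FPKM in control and 1.15 to 13.9 in exercise (log2 fold change -3.75, limma adjusted p = 0.00881) and passed in all 17 settings. Tln1, which links integrins to actin, had no read in exercise (limma adjusted p = 0.0327) and passed in 6 of 16, not without control 2, 3 or 4 or without exercise 1, 2 or 3.

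The labelled cell type was checked against defining markers. Of 15 SC markers, 4 had no read in any library, among them Pax7 and Itga7, the gene of the α7-integrin used in the sort, and Cdh15 and Calcr. A count of 0 allows at most 0.000297% of the reads in any library. The summed SC level was 34.3 to 51.6 FPKM in control and 32.6 to 122 in exercise, below the summed level of the tendon list in each library. In exercise only Sdc4, Heyl, Cd34 and Spry1 had reads. Myf5, Myod1, Vcam1, Chrdl2, Cxcr4, Chodl and Fgfr4 had none there, and Myf5 and Myod1 had 4 and 13 in control. Of 6 SC genes tested, 16.7% were called in each direction, against 8.78% higher and 26.8% lower of all genes. Heyl, a Notch target, rose (no read in control, 0.679 to 28.4 FPKM in exercise, limma adjusted p = 0.0212) and Chodl, a lectin of SCs, fell (no read in exercise, limma adjusted p = 0.00881). Heyl did not pass without control 3 or 4 or without exercise 1, 2 or 3, and Chodl did not with quantile normalization (adjusted p = 0.0681). These zeros do not show that the transcripts were absent, since Tnnc2, a troponin of fast muscle fibres, was also listed at 0 in all 8 libraries while its partner Tnni2 had 468 to 6738 FPKM, and Smad2 and Vcl were at 0 in all 8. Pax7 and Itga7 thus gave no check of the label, and the libraries are called SCs by it.

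Markers of other cell types are given as levels. Of 12 markers of fibro-adipogenic progenitors, connective tissue cells of muscle, all had a read and their sum was 613 to 1719 FPKM in control and 1018 to 2310 in exercise. Among 10 tested, Lum and Clec3b were higher and Mfap5 and Adamts5 lower, 20% each way against 8.78% and 26.8% of all genes (limma adjusted p = 0.0229, 0.0224, 0.00814 and 0.0238), and in the other settings all but Mfap5 failed to pass in 7 or more of 17. Of 12 myofibre genes, 11 had a read, with a sum of 36445 to 76340 FPKM in control and 20181 to 60727 in exercise, and 3 of 11 tested (27.3%) were lower, near the 26.8% of all genes. Among them Mb, myoglobin, had 11445, 324, 219 and 2425 FPKM in control 1 to 4 and 0, 0, 27.4 and 202 in exercise 1 to 4 (limma adjusted p = 0.0231), and did not pass in 5 of 17 settings, those without control 4, exercise 1 or exercise 2 among them. Myh1, a fast myosin heavy chain, had 6.82 to 15.5 and 0 to 2.73 (limma adjusted p = 0.0174) and passed in 11 of 17, not without exercise 1, 2 or 3. Myl1, a myosin light chain, had 2649 to 8720 and 474 to 1046 (limma adjusted p = 0.00598). Of 10 endothelial markers, Pecam1 and 6 more had no read, and 2 were tested. Kdr, a receptor for vascular endothelial growth factor, was lower, with 0, 2994, 1669 and 1076 FPKM in control 1 to 4 and at most 0.53 in exercise (limma adjusted p = 0.0281), and passed in 6 of 16 other settings. Tek, the angiopoietin receptor, was higher, with at most 0.0925 FPKM in control and 24.0, 25.8, 14.7 and 4.42 in exercise 1 to 4 (limma adjusted p = 0.00395). None of 10 leukocyte markers had a read. Schwann cell and smooth muscle lists had reads in 3 of 6 and 3 of 8 genes, all tested. Of the 3 smooth muscle genes tested, 33.3% were called higher, against 8.78% of all genes. Myh11, the smooth muscle myosin, was higher, with no read in control and 70.1, 71.5, 35.6 and 3.14 FPKM in exercise 1 to 4 (limma adjusted p = 0.00646). Acta2 and Pdgfrb did not pass (log2 fold change -1.96 and 1.15, limma adjusted p = 0.22 and 0.287), and the rest of that list had no read. Tek and Myh11 passed in all 17 settings, and in both, as in Scx, exercise 4 was the lowest exercise library. Of 10 cartilage and bone genes, 8 had no read, Acan and Col2a1 included, and the sum was at most 2.16 FPKM. The sort removed Sca1+, CD31+, CD45+ and CD11b+ cells, and Ly6a, the gene of Sca1, had 0 to 8.94 FPKM in control and 0 to 7.44 in exercise. The part of other cell types in the values of the 8 genes was not tested.

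**Figure D5:**
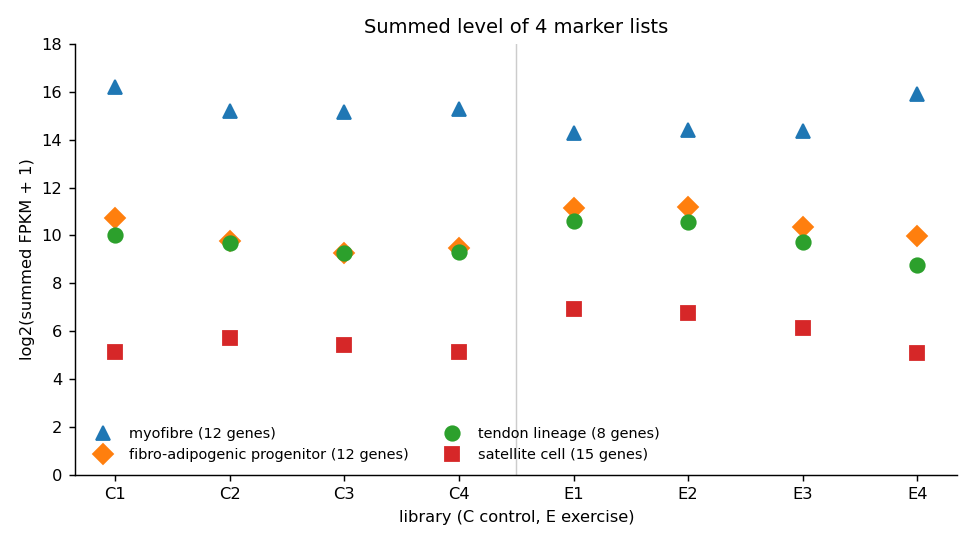
log2 of summed FPKM + 1 (vertical axis) of 4 marker lists in control libraries C1 to C4 and exercise libraries E1 to E4 (horizontal axis), 1 point per library and list. The tendon list lies above the SC list in each library and near or below the fibro-adipogenic list, and the myofibre list is highest.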

How the data were processed

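The authors sorted SCs, amplified and sequenced their RNA, and deposited 1 FPKM value for each gene in each library. By the submitters' processing notes and the methods, reads were aligned with Bowtie 0.12.9, FPKM computed with Cufflinks 2.1.1, reads counted with HTSeq and genes tested with DESeq2 (not used here), on mm10 (GRCm38). Each FPKM value times gene length and a library size inferred from the smallest steps of its library was a whole number of reads (100%, tolerance 0.001), so reads were recovered. Rows that share a symbol were summed (101 rows). For genes whose mean was 1 FPKM or more, log2(FPKM + 1) was fitted in limma 3.58.1 (R 4.3.3, lmFit and eBayes with trend), checked on simulated data, and p-values were adjusted by Benjamini-Hochberg. Exact two-sided permutation tests used all 70 assignments of the 8 libraries (Python 3.11.15, numpy 2.4.6, pandas 2.3.3, scipy 1.17.1). A count of 0 was taken to allow 3 reads. Replicate numbers are not stated to pair samples. Alternatives were another pseudocount (0.1), other filters, quantile and read-total scaling, no trend, voom, the replicate block, and leaving out or averaging libraries. The genes, lists and tests were chosen with earlier results of these data known. Beyond the 8 genes, up to 4 genes per list with the smallest adjusted p under 0.05 and the 3 nearest in pattern to each gene were named, except those of Cilp2, which are not reported here.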

Additional observations from a re-analysis of the deposited data

Results flagged for a closer look

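In groups of 4 libraries, the gap between the most distant library and its neighbour was compared with the group's range. Of 39 groups, 5 had a library farther off than Dixon's 95% critical value, where about 1.95 would be by chance. Mkx had a log2(FPKM + 1) of 1.22 in control 1, where control 2 to 4 had 0 to 0.0894, and rested there on 12 reads. Cilp2 had 0.502 in exercise 1, from 3 reads, against 0 in the other exercise libraries. The summed myofibre list, as log2(FPKM + 1), was 16.2 in control 1 where control 2 to 4 had 15.2 to 15.3, and 15.9 in exercise 4 where exercise 1 to 3 had 14.3 to 14.4. For the summed endothelial list control 1 had 0.128 and control 2 to 4 had 10.1 to 11.5. Control 1 also had the lowest Comp and Cilp2 and the highest Tnmd and Kera among controls, and exercise 4 the lowest Scx, Tnmd, Thbs4, Comp and Chad among exercise libraries.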

How the results depend on the processing

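The number of genes called, 1541 (380 higher and 1161 lower), was 840 (234 and 606) with no filter, 941 (566 and 375) with quantile normalization, 596 (178 and 418) with exercise 1 and 2 averaged, and 0 (0 and 0) when this was combined with leaving out control 4 and exercise 3. Without 1 library it was 527 to 1899 (164 to 568 higher, 360 to 1503 lower), lowest without exercise 3 and highest without control 1. Of the calls, 24.7% were higher, against 60.1% with quantile normalization, 40.3% without exercise 4 and 36.3% with voom. Over all genes, the median change on the log2 scale was -1.42, and -0.44 with quantile normalization, -0.32 with no filter, -0.80 with at least 1 FPKM in 4 libraries and -2.59 with a pseudocount of 0.1. The number of tendon genes called was 3 in 17 of 18 settings and 0 in the last fit named above, where Scx had 4.25, Kera -3.51 and Cilp2 -5.36.

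Signs turned in Tnmd and Comp, which did not pass, and in Mkx, which was under the filter on low values. Tnmd had 0.36 with quantile normalization, 0.24 with voom, and -0.43 to 0.72 without 1 library. Comp had 0.018 with quantile normalization and -1.58 to 0.12 without 1 library, and Mkx -0.29 to 0.12. The reversals were without control 1 (Tnmd 0.28, Mkx 0.12) and without exercise 4 (Tnmd 0.72, Comp 0.12), and their cause was not tested.

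With the replicate block, 1059 genes were called (270 higher, 789 lower) and the same number of tendon genes, 3. Deviations of same-numbered libraries correlated at -0.02 to 0.04, so the numbers were not taken to pair them. Depth limits Mkx in every library, and Scx, Comp, Kera and Cilp2 in exercise 4.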
